A study of Mus musculus with 3 samples.

Results

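The methionine cycle makes the methyl donor S-adenosylmethionine (SAM) from methionine, spends it in methylation reactions, and rebuilds methionine from the homocysteine that remains. MAT2A and MAT2B form the SAM synthase of cells outside the liver, AHCY splits S-adenosylhomocysteine (SAH), the product and inhibitor of methyltransferases, into homocysteine and adenosine, and MTR with its partner MTRR returns homocysteine to methionine. Transsulfuration is the way out of the cycle, in which CBS and CTH turn homocysteine into cysteine. Activated T cells take up much methionine through amino acid transporters and use it for protein synthesis and for SAM.

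The genes described here are the 9 that encode these enzymes and the relatives of AHCY, chosen by name: Mat2a, Mat2b, Ahcy, Ahcyl1, Ahcyl2, Mtr, Mtrr, Cbs and Cth. All 9 were found among the 23282 gene rows, and 8 of them passed the filter on low values that left 12770 rows for testing. Cbs did not pass. The members are a list of names, with no threshold on a measured value.

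The libraries came from CD4 T cells of the spleen and lymph nodes of C57BL/6 mice (C57BL/6J in the study's methods), with no allele or genotype named beyond the strain and no age in the labels. The study's methods describe young female mice, with an age range in weeks, unless otherwise specified. All cells received anti-CD3 and anti-CD28 at 2 µg/mL and were kept for 72 h in complete medium (CM, RPMI with serum), in dialyzed medium (DM, RPMI without amino acids and with dialyzed serum), or in DM with 30 µM methionine added (DM+Met). DM therefore differs from CM in all free amino acids and in the small molecules of serum, so their parts in a difference between DM and CM cannot be told apart, whereas DM+Met differs from DM in methionine. The study describes methionine as still present in DM. The labels list 1 sample per medium, and each sample comes with 2 numbered files, called libraries here. What the 2 files are is not stated in the labels, nor whether mice were pooled. The study calls its 2 samples of each medium biologically independent, and n = 2 rests on that statement. If the files are technical repeats, the SDs and p-values measure only the technical spread.

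Values are log2(CPM + 1), where CPM is the count of a gene relative to the size of its library after the authors' TMM scaling. Because the library kit reads only the 3′ end of a transcript, the count does not grow with transcript length. Total reads ranged from 8504742 to 12377285 between libraries. The ribosomal precursor Rn45s took 31.0% to 38.3% of reads in CM and DM but 15.5% and 20.1% in DM+Met, and TMM factors of 1.22 and 1.16 for DM+Met stood against 0.897 to 0.938 for the other libraries. Across the tested genes, DM library 1 correlated at r = 0.919 with DM library 2 and at 0.925 and 0.921 with the DM+Met libraries, whereas the CM pair reached 0.938 and the DM+Met pair 0.973. Member differences that move by over 1.5 times, change sign or lose a call without DM library 1 are therefore also given without it. The CD4 T cell markers, 9 of 9, were read in every library at a summed level of 1866 to 2295 CPM. Pax5, which defines B cells, had no read in any library, while the summed level of 7 B cell markers was 103 and 87.6 CPM in CM and 58.5 to 81.9 CPM in DM and DM+Met. That of 7 CD8 T and NK cell markers was 68.7 and 83.5 CPM in CM and 33.1 to 50.9 CPM in DM and DM+Met. The single genes of this list did not all follow its sum. Between DM and CM, Cd8a and Cd8b1 were lower in DM, but 3 of the 5 tested, Klrb1c, Klrc1 and Eomes, were higher. The median log2 difference of the 5 was 0.898. Between DM+Met and CM, 1 passed the test upwards (Klrb1c) and 1 downwards (Cd8a). For 8 myeloid markers the summed level was 16.0 and 22.4 CPM in CM and 35.6 to 51.0 CPM in DM and DM+Met. All 3 sums thus separated CM from the other media. Of the myeloid markers, Fcgr1, Itgam or Adgre1 had no read in 5 of 6 libraries, and Lyz2 passed the test between DM and CM (2.13, limma adjusted p = 0.0355), as did Cd8a in the other direction (-1.72, limma adjusted p = 0.0323). In that comparison 3 of 9 CD4 T cell, 1 of 5 CD8 T and NK cell, 0 of 6 B cell and 1 of 7 myeloid markers tested passed. The share over all tested genes was 16.9% (7.8% higher and 9.07% lower). Of the CD4 T cell markers that passed, Cd3g and Cd5 were higher and Cd28 was lower in DM. The part of other cells in the differences from CM given here was not tested.

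Mat2a mRNA is itself a sensor of SAM. The methyltransferase METTL16 binds hairpins in this mRNA whose loop carries a fixed run of bases, methylates an adenosine there, and changes both the splicing and the stability of the transcript when SAM falls. The runs TACAGAGAA and TACAGAAAA, searched on the sense strand only because the site is in RNA, occurred 6 times in the 1494 bases of the Mat2a 3′ UTR (GENCODE annotation of GRCm38, transcript with the longest coding sequence). They began 40, 824, 1003, 1118, 1229 and 1337 bases after the stop codon. These windows of 30 bases are shown because no other member held such a run. Against other genes, the count of runs sets Mat2a apart, and not the presence of a run. The capitals mark the loop run, written as DNA, 5′ to 3′, on the minus strand of chromosome 6.

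Mat2a site 1, chr6:72434234-72434263: tggcgtaggtTACAGAGAAgccttcaagct
Mat2a site 2, chr6:72433450-72433479: ccttgtgataTACAGAGAAgtcacagggca
Mat2a site 3, chr6:72433271-72433300: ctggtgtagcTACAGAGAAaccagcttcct
Mat2a site 4, chr6:72433156-72433185: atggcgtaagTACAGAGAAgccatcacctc
Mat2a site 5, chr6:72433045-72433074: caaggtgtccTACAGAAAAaccttgggtta
Mat2a site 6, chr6:72432937-72432966: gctggtgtggTACAGAGAAgccagcttgtt

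In a folding prediction of each window alone (RNAfold), 5 to 9 base pairs formed within the window. Of the 9 bases of the run, 6 to 9 stayed unpaired. Whether the pairs enclose the run was not counted. The 3′ UTRs of the other 8 members held none of the runs. Of 6498 coding genes with a 3′ UTR at least as long as that of Mat2a, read over the same length, 4.11% held at least 1 run, and only Mat2a held as many as 6. A match is a description of the letters and not a measurement of binding. Reads from the 3′ end also do not tell spliced Mat2a mRNA from the form with a retained intron.

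**Figure D1:**
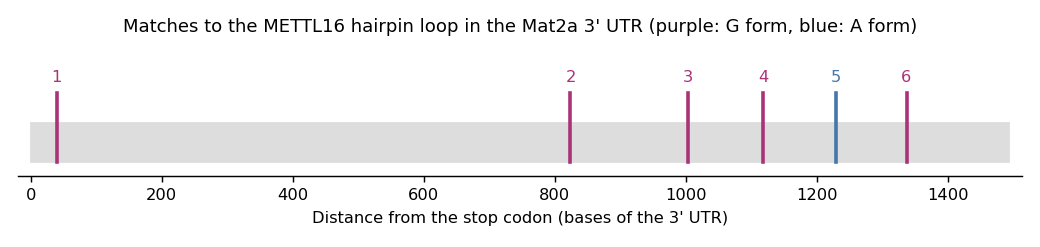
The bar is the Mat2a 3′ UTR of 1494 bases, drawn to scale from the stop codon, and each line is a numbered match to the METTL16 loop run. Site 1 lies 40 bases after the stop codon and the other 5 lie between bases 824 and 1337; site 5 is the single match of the A form.

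To ask how SAM synthesis responds to the medium, the synthase genes were compared first. Mat2a, the catalytic subunit of the synthase (chr6:72432799-72439558, minus strand, 9 exons in the transcript above), was the most abundant member. It had 1398 and 1077 reads in the CM libraries, 4221 and 3301 in those of DM and 3963 and 4296 in those of DM+Met. On the log2 scale these were 7.32 and 7.12 in CM, 8.75 and 8.19 in DM and, in DM+Met, 8.38 and 8.50. Both CM libraries lay below all 4 others, and the DM+Met libraries lay between the DM libraries. Mat2a rose in DM by 1.25 on the log2 scale (SE 0.20), from 149 ± 15.1 CPM (SD, n = 2) to 361 ± 98.3 CPM, which is 2.38-fold on that scale (limma over all tested genes, adjusted p = 0.0032). It was also higher in DM+Met than in CM, by 1.22 (SE 0.20, limma adjusted p = 0.0032), at 346 ± 20.4 CPM. Between DM+Met and DM the difference was -0.03, with a 95% interval of -0.47 to 0.40 (limma adjusted p = 0.98). In bulk RNA, fewer cells of a type and less RNA per cell cannot be told apart. Leaving out DM library 1 turned the difference between DM+Met and DM to 0.25, and scaling to library totals turned it to 0.33, while it moved the median of all genes by 0.34 in that comparison.

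The call for Mat2a in DM was lost in 2 of 18 alternative analyses, without CM library 2 (1.15, limma adjusted p = 0.0544) and without an intensity trend in the variance (limma adjusted p = 0.0561). Without DM library 1 it was 0.97 (limma adjusted p = 0.0454). The call in DM+Met was lost in 4 of 18, without the trend and without CM library 2 or either DM+Met library, with log2 differences of 1.11 to 1.28 and limma adjusted p of 0.0583 to 0.0978.

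Mat2b encodes the regulatory subunit that binds the catalytic subunit (chr11:40679314-40695203, minus strand, 7 exons). It had 462 and 422 reads in the CM libraries, 597 and 509 in those of DM and 429 and 410 in those of DM+Met, or log2 values of 5.75 and 5.78, 5.95 and 5.52, and 5.21 and 5.15. The CM values lay between those of DM, and on this scale both DM+Met libraries were below the other 4. The difference between DM and CM was -0.03 (SE 0.24, limma adjusted p = 0.95), and its sign turned to 0.0024 with library totals, while it was -0.24 without DM library 1. Mat2b did not pass the test between DM+Met and DM either (-0.56, SE 0.24, unadjusted p = 0.0447, limma adjusted p = 0.50), nor between DM+Met and CM (-0.59, limma adjusted p = 0.14). With library totals these differences shrank to -0.203 and -0.201, and without DM library 1 the former was -0.345.

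The ratio of Mat2a to Mat2b reads does not depend on how libraries are scaled to each other. It was 3.03 and 2.55 in CM, 7.07 and 6.49 in DM and, in DM+Met, 9.24 and 10.5. The media did not overlap in this ratio, and its order was CM, DM, DM+Met. With 2 libraries per medium an exact permutation test cannot give a two-sided p below 0.333, so the ratios are given as values only.

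**Figure D2:**
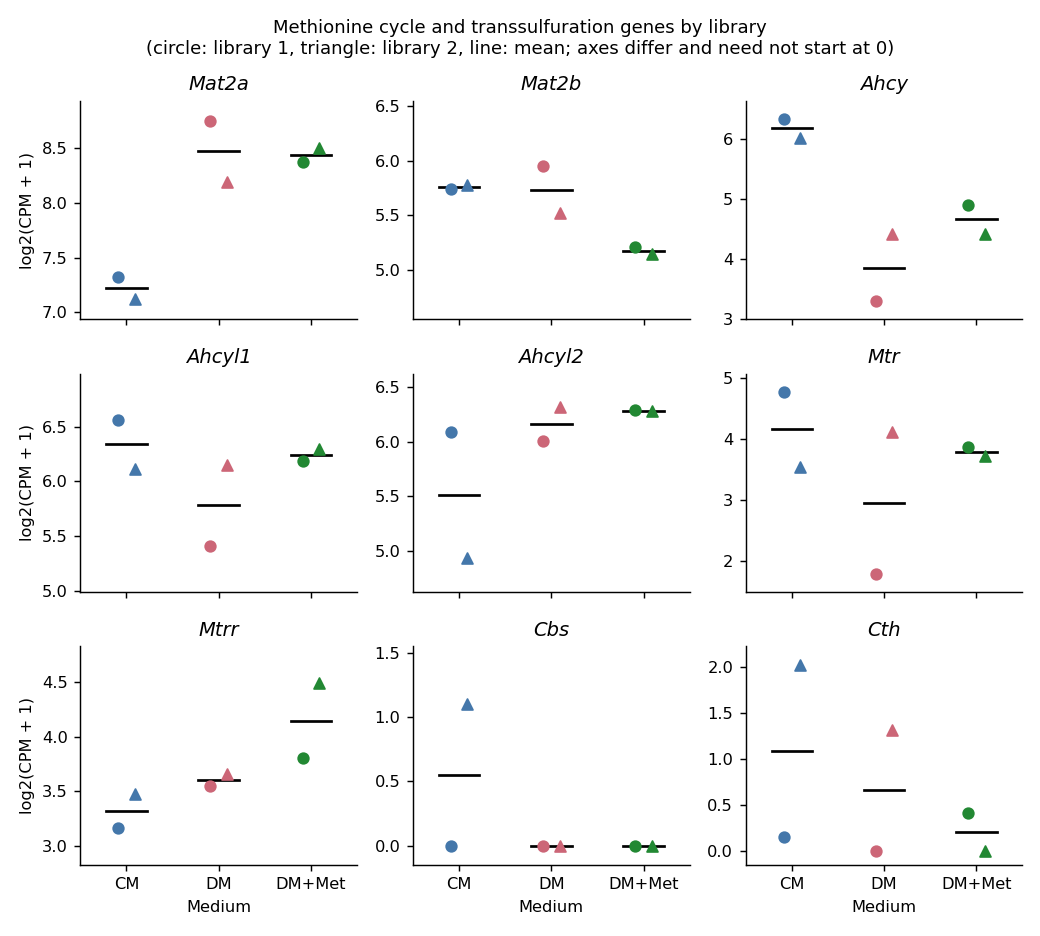
Each panel plots 1 gene, with log2(CPM + 1) on the vertical axis, the medium on the horizontal axis, a symbol per library and a line at the mean of 2 libraries; the axes differ between panels. Mat2a has both CM libraries at 7.12 to 7.32 and the others at 8.19 to 8.75, and Ahcy has both CM libraries at 6.03 to 6.34 and the others at 3.30 to 4.91.

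The SAH hydrolase gene moved the other way. Ahcy (chr2:155059310-155074497, minus strand, 10 exons) had 701 and 501 reads in the CM libraries, 87 and 230 in those of DM and 346 and 244 in those of DM+Met. The log2 values were 6.34 and 6.03 in CM, 3.30 and 4.41 in DM and, in DM+Met, 4.91 and 4.43. Both CM libraries were above all others, and the lower DM+Met library was only just above the higher DM library. In DM Ahcy fell by 2.32 on the log2 scale (SE 0.39), from 72.0 ± 11.1 CPM (SD, n = 2) to 14.6 ± 8.08 CPM (limma adjusted p = 0.0044). In DM+Met it was 24.7 ± 6.00 CPM and differed from CM by -1.52 on the log2 scale (SE 0.39, limma adjusted p = 0.028). The difference between DM+Met and DM was 0.81 (SE 0.39), with a 95% interval of -0.06 to 1.68 (limma adjusted p = 0.55).

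DM library 1 held the lowest Ahcy value. Without it the fall in DM was -1.77 (limma adjusted p = 0.0537) and the difference between DM+Met and DM was 0.25 in place of 0.81. The fall in DM also missed the threshold without CM library 1 (-2.17, limma adjusted p = 0.0720). The lower level in DM+Met than in CM missed it in 8 of 18 alternatives, among them library totals (-1.13, limma adjusted p = 0.0604), and without either CM or either DM+Met library, where adjusted p reached 0.28.

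Ahcyl1 and Ahcyl2 encode AHCY-like proteins that bind the inositol trisphosphate receptor and ion transporters, and AHCYL1 lacks SAH hydrolase activity. Ahcyl1 (chr3:107663118-107696560, minus strand, 17 exons) had 823 and 534 reads in the CM libraries, 407 and 796 in those of DM and 859 and 923 in those of DM+Met. Its DM and CM libraries overlapped, at log2 values of 5.41 and 6.16 in DM and 6.57 and 6.12 in CM, and both DM+Met libraries, at 6.19 and 6.30, were above both DM libraries. The difference between DM and CM was -0.56 (SE 0.28, limma adjusted p = 0.19), that between DM+Met and DM was 0.46 (adjusted p = 0.64), and that between DM+Met and CM was -0.10 (adjusted p = 0.85), which turned to 0.29 with library totals. Without DM library 1 the differences of Ahcyl1 were -0.19 (DM minus CM) and 0.087 (DM+Met minus DM). Ahcyl2 (chr6:29768011-29912310, plus strand, 17 exons) had 591 and 231 reads in the CM libraries, 621 and 890 in those of DM and 922 and 914 in those of DM+Met. The lower CM library, at 4.94, stood apart from the other 5 libraries of Ahcyl2, which lay between 6.01 and 6.31. The difference was 0.65 in DM (SE 0.34, limma adjusted p = 0.22) and 0.77 in DM+Met (SE 0.34, limma adjusted p = 0.16) against CM. For DM+Met against DM it was 0.12 (limma adjusted p = 0.95) and turned to -0.03 without DM library 1. In DM+Met against CM, Ahcyl2 passed the test under library totals (1.16, limma adjusted p = 0.0291) and without CM library 1 (1.35, limma adjusted p = 0.0377). Without CM library 2, the low one, the same difference was 0.19 (limma adjusted p = 0.65) and that between DM and CM was 0.0665 (limma adjusted p = 0.88). Its last exon overlaps 4930528J11Rik on the opposite strand, and whether reads were counted by strand is not given in the sources used here.

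Within a library, Ahcyl1 had 1.17 and 1.07 reads per read of Ahcy in CM, 4.68 and 3.46 in the DM libraries and 2.48 and 3.78 in those of DM+Met. For Ahcyl2 the ratio to Ahcy was 0.843 and 0.461 in CM, 7.14 and 3.87 in DM and, in DM+Met, 2.67 and 3.75. Mat2a had 1.99 and 2.15 reads per read of Ahcy in CM, 48.5 and 14.4 in the DM libraries and 11.5 and 17.6 in those of DM+Met. In each of these ratios both CM libraries were below the other 4, while DM and DM+Met overlapped in all but the ratio of Ahcyl2, whose DM libraries were both above DM+Met.

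**Figure D3:**
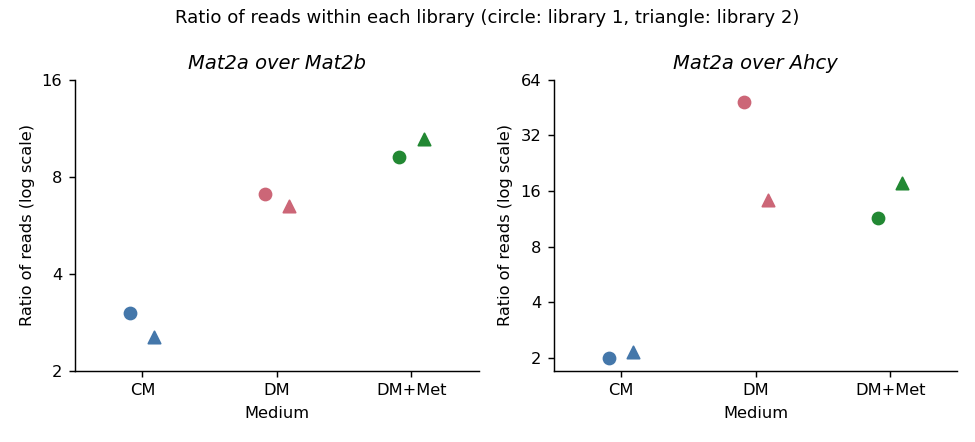
The ratio of reads of Mat2a to Mat2b (left) and of Mat2a to Ahcy (right) within each library is drawn on log axes by medium, with a circle for library 1 and a triangle for library 2. The left ratio is 2.55 to 3.03 in CM, 6.49 to 7.07 in DM and 9.24 to 10.5 in DM+Met; the right ratio is 1.99 to 2.15 in CM and 11.5 to 48.5 in the other media.

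Neither remethylation gene passed the test, and Mtr spread widely within CM and within DM. Mtr, the cobalamin-dependent methionine synthase (chr13:12182712-12258113, minus strand, 33 exons), had 231 and 83 reads in the CM libraries, 24 and 185 in those of DM and 162 and 144 in those of DM+Met. DM library 1 was the lowest at a log2 value of 1.79, against 4.12 in DM library 2, so the DM pair spanned the values of all other libraries but CM library 1 at 4.77. The difference between DM and CM was -1.21 (SE 0.72, limma adjusted p = 0.28) and was -0.04 without DM library 1. Against DM, DM+Met was at 0.84 (SE 0.72, limma adjusted p = 0.77), which turned to -0.33 without that library. For DM+Met against CM it was -0.37 (limma adjusted p = 0.77) and turned to 0.0021 with library totals. Mtrr, the reductase that restores oxidized cobalamin on methionine synthase (chr13:68560780-68582149, minus strand, 15 exons), had 70 and 79 reads in the CM libraries, 105 and 132 in those of DM and 155 and 256 in those of DM+Met. Its libraries did not overlap in any comparison, with log2 values of 3.17 and 3.48 in CM, 3.55 and 3.66 in DM and, in DM+Met, 3.81 and 4.49. None of the differences passed the test, at 0.29 for DM against CM (SE 0.44, limma adjusted p = 0.69), 0.54 for DM+Met against DM (adjusted p = 0.76) and 0.83 for DM+Met against CM (adjusted p = 0.24).

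Transsulfuration transcripts were at the limit of detection. Cbs, which joins homocysteine and serine (chr17:31608894-31637238, minus strand, 17 exons), had 9 reads in CM library 2 and none in the other 5 libraries. A count of 0 allows up to 3 reads, or 0.251 to 0.342 CPM in those 5 libraries, for counting error only. Within the last 300 bases of the Cbs transcript, 12.7% of windows of 50 bases also occur in other genes, a share that was 0.0% for the other 8 members. How the counting treated reads that match several genes is not given in the sources used here. Cth, which releases cysteine from cystathionine (chr3:157894248-157925077, minus strand, 12 exons), had 1 and 24 reads in the CM libraries, 0 and 17 in those of DM and 4 and 0 in those of DM+Met. The spread within a medium, from 0.16 to 2.03 on the log2 scale in CM, was larger than any difference between media. Those differences were -0.43, -0.45 and -0.88 for DM against CM, DM+Met against DM and DM+Met against CM (limma adjusted p = 0.73, 0.91 and 0.47), and their sign turned without CM library 2, DM library 1 or DM library 2.

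Counted together, 2 of the 8 tested members passed the test between DM and CM, Mat2a upwards and Ahcy downwards, where 16.9% of all tested genes did (7.8% higher and 9.07% lower). None passed between DM+Met and DM, a comparison in which 0.0548% of all genes did (0.0392% higher and 0.0157% lower), or 7 genes, and 1238 genes had an unadjusted p below 0.05. Under limma-voom, 21 genes passed there, none of them a member. Against CM, the same pair passed in DM+Met, against 15.3% of all genes (6.92% higher and 8.36% lower). The libraries of 3, 4 and 5 members did not overlap in these comparisons, in that order, against 54.1%, 41% and 60.9% of all genes. The median log2 difference of the 8 members was -0.23, 0.29 and -0.23, against 0.07, 0.01 and 0.06 over all tested genes. Both comparisons with CM share the CM libraries, so the calls in one are not independent of those in the other.

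**Figure D4:**
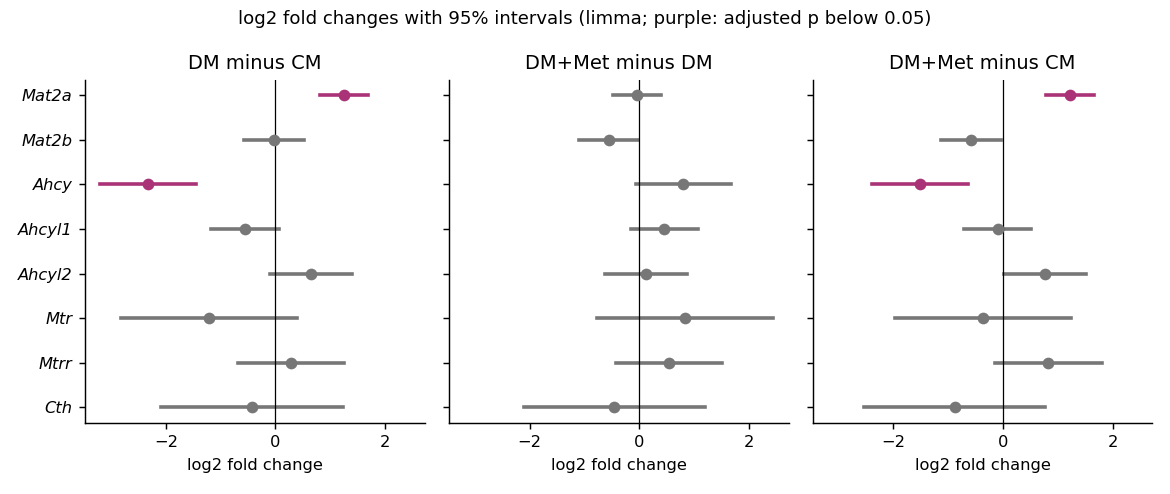
Points are log2 differences of the 8 tested members for DM minus CM, DM+Met minus DM and DM+Met minus CM, with 95% intervals from limma as lines, and purple marks an adjusted p below 0.05. Mat2a at 1.25 and 1.22 and Ahcy at -2.32 and -1.52 are purple in both comparisons with CM, and no member is purple between DM+Met and DM.

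Averaged over the 6 libraries, the members followed the order Mat2a, Ahcyl1, Ahcyl2, Mat2b, Ahcy, Mtrr, Mtr and Cth. The order depended on the medium. In CM, Ahcy (mean log2 value 6.18) was above Mat2b (5.76) and Ahcyl2 (5.51), and Mtr (4.16) was above Mtrr (3.32). In DM and DM+Met, Ahcyl2 (6.16 and 6.29) was above Ahcyl1 (5.78 and 6.24). Over all libraries, Mat2a stood at the 96.9th percentile of the tested genes and Cth at the 4.24th, with Ahcyl1 at 83.4, Ahcyl2 at 81.7, Mat2b at 76.2, Ahcy at 65.7, Mtrr at 45.1 and Mtr at 44.2. Neighbours in the order from Ahcyl1 to Ahcy, and Mtrr with Mtr, overlapped in their library values.

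The genes whose profile over the 6 libraries lay closest to each member, by the root mean square difference of centred log2 values among the 6349 tested genes averaging 4 or more on the log2 scale, were as follows. For Mat2a they were Flna (0.068), which encodes the actin crosslinker filamin A, Inpp5f (0.090) and Prkca (0.10), the gene of protein kinase C alpha. For Ahcy they were Mcm3 (0.21), a subunit of the replicative helicase, Hmgn5 (0.24) and Ggta1 (0.25). Ahcyl2 lay closest to H2-Ke6 (0.042) and Trib3 (0.063), the latter a pseudokinase gene of the ATF4 response, and Ikbkg (0.096). Mtrr lay closest to Chmp1a (0.13), Slc7a5 (0.14), the methionine transporter, and Arid3b (0.14). For Mat2b the closest were Pigx (0.060), Cep152 (0.079) and Dctn5 (0.095), and for Ahcyl1 Cdk5 (0.072), Sec14l1 (0.082) and Vps29 (0.089). Those of Mtr, Cwc27 (0.28), Eci1 (0.30) and Ptger1 (0.37), and of Cth, Fam134c (0.29), Tor2a (0.34) and Oxsr1 (0.35), were less close.

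The neighbouring reactions were covered by 10 lists with 89 genes in the files, of which 78 were tested. Of these, 15 passed between DM and CM, where 16.9% of all tested genes did (7.8% higher and 9.07% lower). The 15 include Mat1a, which passed the filter through DM alone. None passed between DM+Met and DM, where 0.0548% of all tested genes did. Between DM+Met and CM 12 passed, against 15.3% of all tested genes (6.92% higher and 8.36% lower). The count of 15 was 2 without CM library 1, 3 without CM library 2, 7 without either DM library, 5 without DM+Met library 1 and 4 without DM+Met library 2, so calls of single genes below rest on all 6 libraries unless stated. Among the regulators of Mat2a mRNA, 1 of 4 fell in DM and none rose. Nudt21, a subunit of the cleavage factor that selects poly(A) sites, had 872 and 795 reads in the CM libraries, 618 and 383 in those of DM and 510 and 479 in those of DM+Met, and fell by 1.10 in DM (SE 0.29, limma adjusted p = 0.0275) and by 1.26 in DM+Met against CM (limma adjusted p = 0.0164). Mettl16 itself was 0.66 above CM in both DM and DM+Met without passing the test (limma adjusted p = 0.098 and 0.11), and the call for Nudt21 was lost in 8 of 18 alternatives in DM and in 7 of 18 in DM+Met.

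The liver-type enzymes were almost unread, except for 1 gene. Mat1a, the SAM synthase gene of hepatocytes (chr14:41105035-41124412, plus strand), had 38 and 27 reads in DM and none in CM or DM+Met. Its mean level in DM was 3.13 CPM. A floor of 3 reads per library, averaged over the libraries of a medium, was 0.363 CPM in CM and 0.252 CPM in DM+Met. Mat1a passed the filter on low values through DM alone and had no spread in the other media. Its test is therefore not read as a result, although it is among the 15 genes counted above and drawn filled in the figure of the lists. Bhmt and Bhmt2, which remethylate homocysteine with betaine or S-methylmethionine, had no read, and Gnmt, the glycine methyltransferase that disposes of SAM, had 17 reads in DM+Met library 1 alone.

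Methyl groups for the MTR reaction come from folate. Of 10 tested genes of that supply 2 fell in DM and none rose, against 9.07% and 7.8% of all tested genes, and the median was -0.90. Mthfd1, the trifunctional folate enzyme of the cytosol, fell by 1.35 (SE 0.41, limma adjusted p = 0.0490), a call lost in 14 of 18 alternatives. None of the 9 cobalamin handling genes and none of the 3 genes that dispose of adenosine passed in any comparison. The shares of all tested genes were 16.9% for DM against CM, 0.0548% for DM+Met against DM and 15.3% for DM+Met against CM. The medians of these 2 lists for DM against CM were 0.34 and -0.12.

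Of 10 tested genes that use cysteine, 1 rose and 2 fell in DM, against 7.8% and 9.07% of all tested genes. Gclc, the catalytic subunit of the enzyme that starts glutathione synthesis, had 483 and 442 reads in the CM libraries, 855 and 1109 in those of DM and 2314 and 2072 in those of DM+Met. It rose by 0.72 in DM (SE 0.18, limma adjusted p = 0.0252) and by 1.70 in DM+Met against CM (limma adjusted p = 0.000362). The latter call held in all 18 alternatives, the former in 10. Its partner Gclm rose by 1.59 in DM+Met against CM (SE 0.36, limma adjusted p = 0.0168) and was at 0.68 in DM (adjusted p = 0.23). Got1, the cytosolic aspartate aminotransferase, differed from CM by -0.79 in DM and by -1.10 in DM+Met (limma adjusted p = 0.0323 and 0.0084), and Ethe1, a mitochondrial sulfur dioxygenase gene, fell by 1.26 in DM (limma adjusted p = 0.0419). The calls in DM for Got1 and Ethe1 were lost in 10 and 11 of 18 alternatives. Those in DM+Met for Gclm and Got1 were lost in 5 of 18 each, without the trend and without either CM or either DM+Met library, where adjusted p reached 0.24 and 0.15.

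SAM also feeds polyamine synthesis, whose by-product is salvaged to methionine. Of 10 tested genes, 2 fell in DM and none rose, against 9.07% and 7.8% of all tested genes, with a median of -0.54. Odc1, ornithine decarboxylase, had 1050 and 842 reads in the CM libraries, 369 and 405 in those of DM and 989 and 885 in those of DM+Met, and fell by 1.60 in DM (SE 0.20, limma adjusted p = 0.0012), a call that held in all 18 alternatives. Its difference between DM+Met and DM was 1.08 (SE 0.20) and did not pass (limma adjusted p = 0.16). Srm, spermidine synthase, fell by 1.12 in DM (SE 0.34, limma adjusted p = 0.0497), which was lost in 11 of 18 alternatives.

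Among 8 tested transporters, none passed between DM and CM and 2 were higher in DM+Met than in CM. The shares of all tested genes were 16.9% and 6.92%. Slc7a5, the light chain of the main methionine transporter of T cells, had 286 and 337 reads in the CM libraries, 451 and 459 in those of DM and 749 and 980 in those of DM+Met. It was 0.92 higher in DM+Met than in CM (SE 0.25, limma adjusted p = 0.0379), against 0.20 for DM (limma adjusted p = 0.63). Slc38a1, a neutral amino acid transporter, was 0.73 higher (SE 0.20, limma adjusted p = 0.0356). The calls were lost in 9 and 10 of 18 alternatives. None of the 10 tested SAM-dependent methyltransferases of small molecules and RNA passed in any comparison. Over all tested genes 16.9% passed for DM against CM, 0.0548% for DM+Met against DM and 15.3% for DM+Met against CM. The median of these methyltransferases was 0.17 for DM against CM.

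Of 14 genes of the ATF4 response, the transcription program that cells use when amino acids run short, 1 rose and 5 fell in DM, and the median was -0.84. Over all tested genes 7.8% rose and 9.07% fell. Atf5 rose by 2.04 (SE 0.32, limma adjusted p = 0.0032), from 196 and 169 reads in CM to 1330 and 726 in DM, and reached 2218 and 2999 reads in DM+Met, which is 3.24 above CM (limma adjusted p = 0.000237). Atf4 itself fell by 0.92 (SE 0.17, limma adjusted p = 0.0059), Ddit4, an inhibitor of mTORC1 signalling, by 1.38 (limma adjusted p = 0.0071) and Psat1, of serine synthesis, by 1.09 (limma adjusted p = 0.0059). In DM+Met, 1 gene of this list was higher and 5 were lower than in CM, against 6.92% and 8.36% of all tested genes. The calls in DM were lost in 2 of 18 alternatives for Atf5, 4 for Atf4, 4 for Ddit4 and 1 for Psat1.

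**Figure D5:**
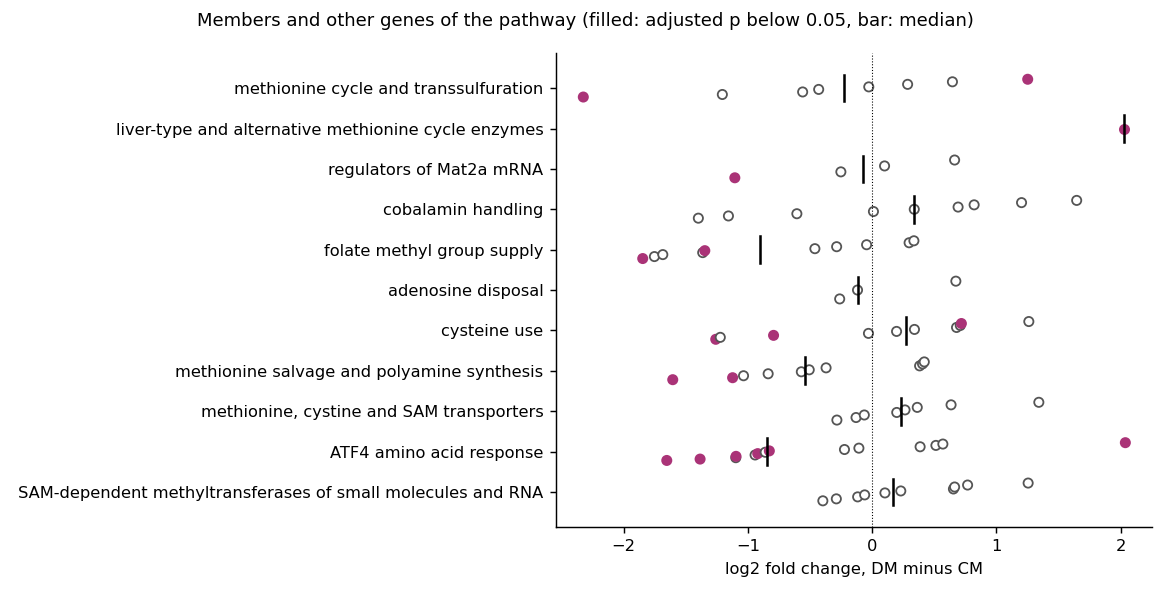
Circles are log2 differences between DM and CM for the members in the top row and for the tested genes of 10 neighbouring lists below, filled where the limma adjusted p is below 0.05, with a bar at the median of each row. Filled points lie on both sides of 0 among the members (Ahcy at -2.32, Mat2a at 1.25), the cysteine genes and the ATF4 list, whose medians are -0.23, 0.27 and -0.84. The filled point of the liver-type list is Mat1a at 2.02, which passed the filter through DM alone.

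The start site regions of the members were searched for sequences that the ATF4 and MYC families are known to bind. RefSeq promoter windows (250 bases before to 50 after a start, GRCm38.p6) existed for 8 members, 13 windows in all. None held the C/EBP-ATF response element TGATGNAAN on either strand, against 4.0% of 32851 promoters, and 1 of 13, of Cbs, held the E-box CACGTG, against 7.2%. A count of 0 says only that the letters were not in these windows.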

How the data were processed

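RNA of CD4 T cells was sequenced from 500 ng per library with a 3′-end kit. The submitters' notes name Bowtie2, bedtools and build mm10. Versions, annotation and strand setting are not given in the sources used here. The authors deposited log2 values of TMM-scaled CPM plus 1, to 3 decimals, for 23282 rows in 6 libraries, 2 per medium. Base and added 1 follow from the values, which move in equal steps and so give back the reads: at up to 300 reads, at least 99.776% of values lay within 0.1 of a whole number. A floor of 3 reads was 0.251 to 0.384 CPM, and intervals and floors cover counting error only. Libraries of a medium differed by more than sampling noise (chi-square per degree of freedom 18.2 to 35.9).

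Rows with at least 0.946 CPM (10 reads at the median depth) in 2 libraries and 15 reads in total, 12770 rows, were fitted together with limma 3.58.1 in R 4.3.3 (lmFit, eBayes with trend, 3 media in 1 fit, 6.87 prior degrees of freedom), two-sided, with Benjamini-Hochberg adjustment over all rows and a threshold of 0.05. The fit was tested on simulated data. Fold changes on this scale understate the change of genes with few reads. The p-values rest on the spread within the 3 media, with 2 libraries each, pooled into 1 variance per gene. That variance was moderated by the prior taken from all tested genes. Positions are from GENCODE M21 (GRCm38, the same assembly as mm10). Folding used RNAfold 2.7.2. Alternatives changed the scaling, pseudocount, filter, variance prior, method (limma-voom), block and libraries. Members and lists were chosen with earlier results of these data known. All members are named, from each list at most 4 called genes by lowest adjusted p, Mat1a, Bhmt, Gnmt, Mettl16 and Slc7a5 whatever their values, and the 3 closest profiles per member. Some genes that this rule names are not reported here. Bhmt2 was named after its values were seen. Protein sequences were not used here.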

Additional observations from a re-analysis of the deposited data

How the results depend on the processing

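Of the 2 members called between DM and CM, 1 was called without a variance trend and 1 to 2 when a library was left out. For DM+Met against DM the count was 0 in all 18 alternatives. For DM+Met against CM it was 1 with a pseudocount of 0.1 and 1 without a filter, 0 without a trend, and 0 to 2 when a library was left out. Over all genes, the count between DM and CM (2154) was 795 with only those media in the fit, 1329 without a trend and 541 to 1061 with a library left out. For DM+Met against DM (7) it was 55 with library totals, 13 with a pseudocount of 5, 2 without a filter, 17 when the mean log2 value had to reach 2, 27 with 10 reads in every library, 0 with only those media (1303 genes at an unadjusted p below 0.05), 0 without a trend (1192 genes), 14 with a robust prior, 21 with limma-voom and 0 with any library left out (431 to 2006 genes). For DM+Met against CM (1952) it was 1265 without a filter, 944 without a trend and 268 to 1622 with a library left out. Of the list genes between DM and CM (15), 5 were called with only those media, 6 without a trend and 2 to 7 with a library left out. The cause was not tested.

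With library totals the median difference of all genes was 0.09, 0.34 and 0.41, against 0.07, 0.01 and 0.06 with TMM. The order is DM against CM, DM+Met against DM and DM+Met against CM. Library totals also made 92.7% of calls between DM+Met and DM and 76.3% between DM+Met and CM higher (71.4% and 45.3% with TMM). Totals without Rn45s made 59.6% of calls in DM and 57.4% in DM+Met higher against CM (46.2% and 45.3% with TMM). Signs turned only for members that were not called. With totals, Mat2b in DM against CM was 0.0024, Mat2a in DM+Met against DM 0.331, and Ahcyl1 and Mtr in DM+Met against CM 0.291 and 0.00214. With totals without Rn45s, Mat2b in DM against CM was 0.128 and Ahcyl1 in DM+Met against CM 0.0212. When each library was left out in turn, the difference between DM and CM ranged from -0.242 to 0.188 for Mat2b and from -1.36 to 0.505 for Cth. That between DM+Met and DM ranged from -0.314 to 0.247 for Mat2a, from -0.029 to 0.278 for Ahcyl2, from -0.327 to 2.00 for Mtr and from -1.11 to 0.208 for Cth. That between DM+Met and CM ranged from -0.324 to 0.125 for Ahcyl1, from -0.983 to 0.248 for Mtr and from -1.82 to 0.0525 for Cth.

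Libraries of different media share only their number: with the replicate block, 1947, 7 and 1797 genes were called and the members' calls did not change, and correlations of same-numbered deviations were -0.02, -0.03 and 0.005. The precision of genes with few reads, such as Cbs and Cth, is limited by depth.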
